A study of Caenorhabditis elegans with 12 samples.

Results

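The Hedgehog-related genes of Caenorhabditis elegans are the warthog (wrt), groundhog (grd), ground-like (grl) and quahog (qua) families, and the patched-related (ptr) genes encode membrane proteins akin to the Hedgehog receptor Patched. Every gene whose symbol begins with wrt-, grd-, grl-, qua- or ptr- was taken, which gave 80 genes among the 25478 that the arrays named by a single symbol: 10 wrt, 14 grd, 31 grl, 1 qua and 24 ptr genes. Each of the 80 was measured by 1 probe set, so no choice among probe sets arose. The reference gene table holds 84 such symbols, and 4 of them (grd-4, grd-6, grd-17 and grl-32) were not analysed here.

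All worms were wild type, strain N2, kept at 20 °C on Escherichia coli OP50 and grown from hatched larvae until the L4 stage, the last before adulthood, with about 2000 larvae put on each plate. The medium held 1000 µM linoleic acid (LNA), 1000 µM gamma-linolenic acid (GLA) or 1000 µM dihomo-gamma-linolenic acid (DGLA), each brought in with ethanol, and the control medium held the same 1% ethanol and no added acid. GLA differs from LNA by a further double bond, and DGLA differs from GLA by a longer chain. RNA from whole larvae was hybridised to 1 array per biological replicate, with n = 3 in each of the 4 groups and 12 arrays in all, and the 3 acids were set against the same 3 control arrays. No clock time of collection was among the labels.

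Worms have no true Hedgehog and no Smoothened, the membrane protein that carries the signal inward in flies and vertebrates. Their warthog, groundhog and quahog proteins are secreted, and some carry the self-cleaving domain of Hedgehog, whereas the ground-like proteins lack it. Patched-related proteins share with Patched and with the cholesterol transporter NPC1 a sterol-sensing membrane domain. Many genes of both kinds are transcribed in the hypodermis, the seam and the glial support cells, where their RNA rises and falls once in each larval molt, and several are needed to build or shed the cuticle.

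Values are log2 signals, and a difference of 1 is a doubling of signal on this scale. The arrays correlated with each other at 0.9865 to 0.9944 across probe sets. LNA 2 and LNA 3 stood apart from the other 10 arrays, at 41.95 and 35.68 on the first principal component (23.1% of the variance), against -18.02 to 3.64 for the others. Results of the 80 genes that rest on them are given below with and without them. Leaving out LNA 1 raised the number of probe sets with an adjusted p under 0.05 by limma from 17 to 895 for LNA minus control. For GLA minus LNA it rose from 18 to 961, and for DGLA minus LNA from 93 to 1359. Adjusted p-values given below without LNA 1 stand beside that rise over the whole array. Of 14 measured markers of the hypodermis and seam, 13 lay above the lower quartile of every array and nhr-74 lay below it on 4 arrays, with mean levels over the 14 of 7.58 to 7.63 on the LNA arrays, 7.62 to 7.66 on the GLA arrays, 7.53 to 7.58 on the DGLA arrays and 7.54 to 7.66 on the control arrays, and 0 of the 14 were called by limma in any comparison (1 to 2 against control had an unadjusted p under 0.05). Of 6 measured glial and support cell markers, delm-2 lay below the lower quartile on all arrays, delm-1 on 10 and hlh-17 on 8. By limma 0 of the 6 were called (2 with DGLA and 0 with LNA or GLA had an unadjusted p under 0.05). Those 2 differed in direction, vap-1 at -0.24 and kcc-3 at 0.48 for DGLA minus control. Over all probe sets, 9.6% with LNA, 5.46% with GLA and 5.69% with DGLA had an unadjusted p under 0.05. The p-values measure the spread between biological replicates, and a lower signal in whole larvae cannot be told apart as fewer cells that make an RNA or as less of it per cell.

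The families were present at very different signals. The mean over the 12 arrays ran between 1.93 and 12.08 among the 80 genes. It was at least 5 for 50 genes, 21 of them ptr genes, and under 5 for 30, 19 of them grl genes. Signals of different probe sets are not on a common scale of abundance. Only grl-11, grl-19, grl-23, grl-24 and grl-29 lay below the lower quartile (2.90 to 2.99) on all 12 arrays. These 5 stayed in the counts, and no difference is given for any of them singly. The standard deviation (SD) over the 12 arrays had a median of 0.181, was smallest for grd-9 (0.0315) and was largest for grd-1 (0.545).

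**Figure D1:**
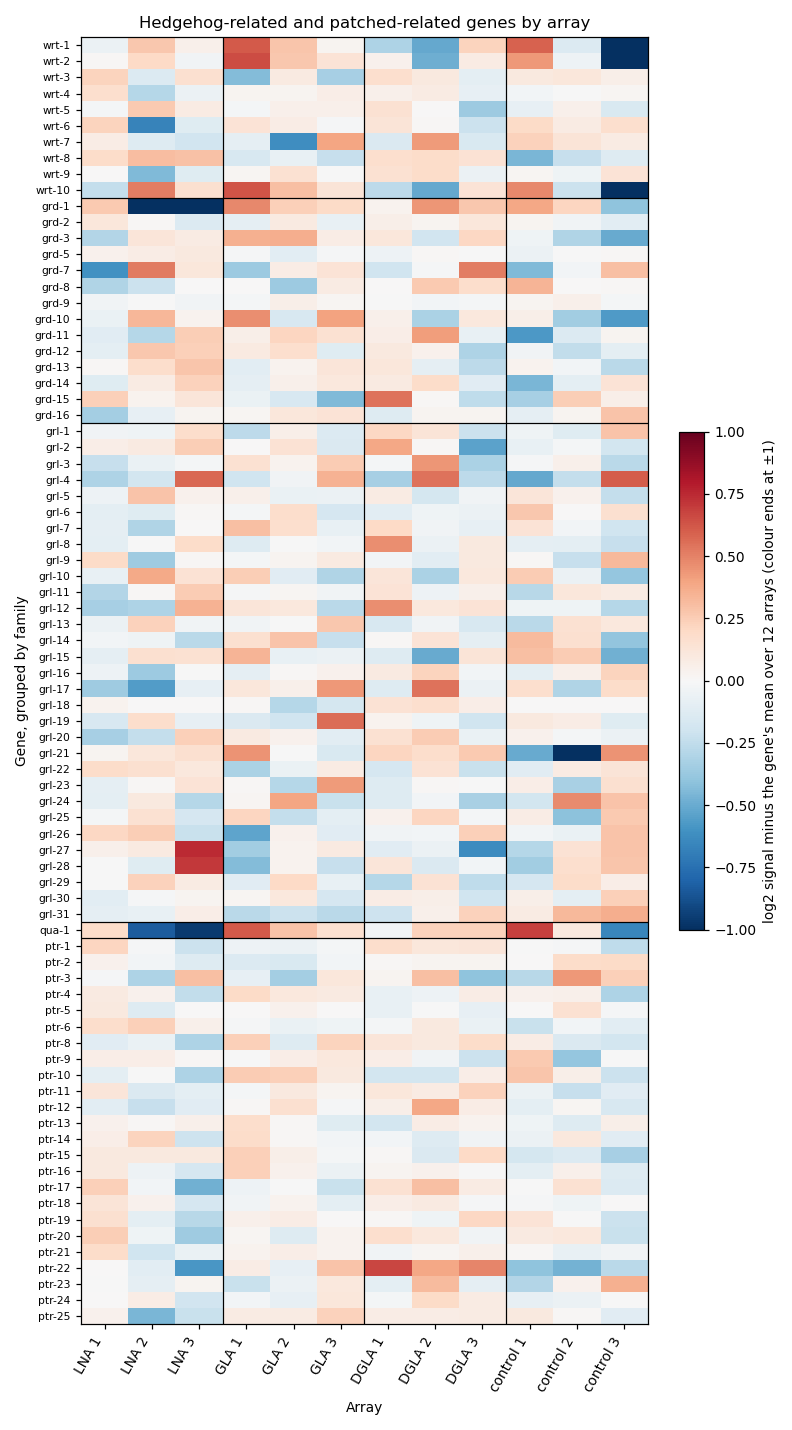
Heat map of the 80 genes (rows, grouped by family) on the 12 arrays (columns, in the order LNA, GLA, DGLA, control); colour gives the log2 signal minus the gene's own mean over 12 arrays, and the colour scale ends at 1 in each direction. Wide swings within groups include those of grd-1 and qua-1 on LNA 2 and LNA 3, of wrt-1, wrt-2 and wrt-10 on control 3 and of grl-21 on control 2.

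Against control, 1 of the 80 genes changed past the threshold of an adjusted p of 0.05 over all probe sets: ptr-22 rose with DGLA. No gene of the 80 passed with LNA or with GLA by limma (5 with LNA and 7 with GLA had an unadjusted p under 0.05, where 9.6% and 5.46% of all probe sets did), and the array-wide shares called were 0.058% with LNA and 0.229% with GLA. With DGLA the array-wide share was 0.498% (0.3% higher), so 1 gene in 80 is not a result about the families as a whole. An unadjusted p under 0.05 was reached by 5 genes with DGLA, all higher, beside 5.69% of all probe sets. The median difference of the 80 genes was 0.02 with LNA, 0.05 with GLA and 0.05 with DGLA on the log2 scale, beside 0.024, -0.0024 and -0.00175 over all genes. Differences spanned -0.69 to 0.54 with LNA, -0.51 to 0.65 with GLA and -0.35 to 0.90 with DGLA, with a median standard error (SE) of 0.142.

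Genes whose 3 treated arrays were all above, or all below, the 3 control arrays were also counted. With LNA there were 5 such genes above control and 2 below, where 8.24% and 3.94% of all genes did so. With GLA there were 8 above and 2 below, beside 5.7% and 6.35% of all genes. With DGLA there were 9 above and 1 below, beside 5.57% and 5.19% of all genes. The ptr family supplied 5 of the 8 with GLA and 5 of the 9 with DGLA, and its median difference was 0.08 with each of these acids and 0.01 with LNA. The differences from control shared the same control arrays, so the 2 counts are not independent of each other.

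**Figure D2:**
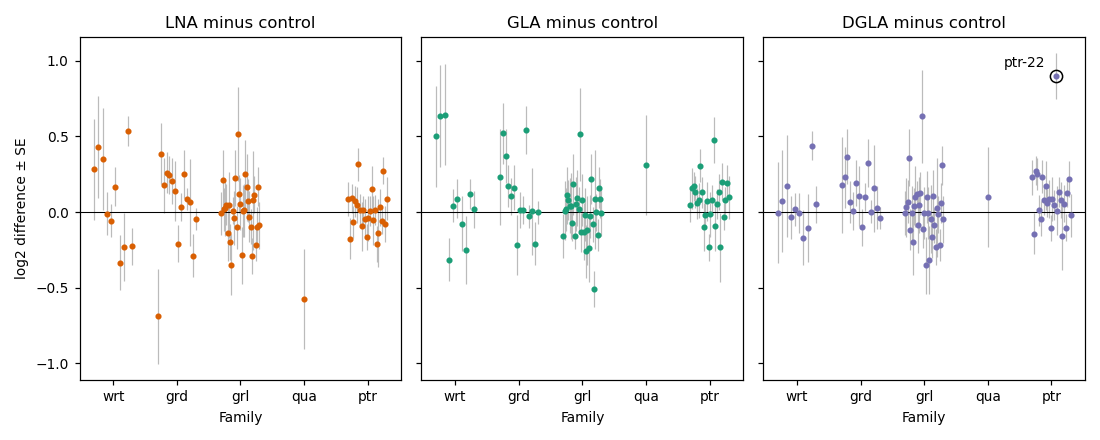
Log2 difference from control (y axis, with 1 SE) of each gene by family (x axis), in 1 panel for LNA, 1 for GLA and 1 for DGLA; the circled point is the only gene called, ptr-22 with DGLA at 0.90. Nearly all other points are within about 0.5 of 0, and the widest error bars belong to genes that differ between arrays of a single group.

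Among the warthog genes, the putative secreted ligands, wrt-8 stood above control with both LNA and DGLA. It read 6.38, 6.51 and 6.49 on the LNA arrays, 6.04, 6.13 and 5.97 on the GLA arrays, 6.37, 6.38 and 6.35 on the DGLA arrays and 5.74, 5.97 and 6.07 on the control arrays. All LNA and all DGLA values exceeded all control values, while the GLA values overlapped control. The difference from control was 0.54 with LNA (SE 0.098, 95% interval 0.32 to 0.75, adjusted p = 0.137), 0.44 with DGLA (0.23 to 0.65, adjusted p = 0.112) and 0.12 with GLA (-0.09 to 0.33, adjusted p = 0.999), so none was called. Where probe sets with a mean below 5 were left out before adjustment, the adjusted p was 0.0321 with LNA and 0.0310 with DGLA. With LNA 1 alone standing for LNA the difference was 0.46, and without LNA 1 it was 0.57 with an adjusted p of 0.0155. Between the acids, wrt-8 differed by -0.42 for GLA minus LNA (-0.63 to -0.20, adjusted p = 0.297), by 0.32 for DGLA minus GLA (0.11 to 0.53, adjusted p = 0.784) and by -0.10 for DGLA minus LNA (-0.31 to 0.12, adjusted p = 0.75). The arrays of these groups did not overlap in any of the 3 comparisons.

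**Figure D3:**
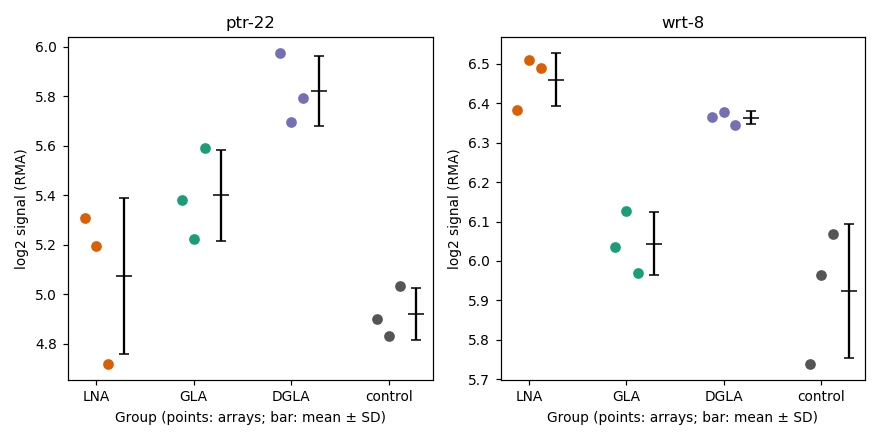
Log2 signal (y axis) of ptr-22 and wrt-8 on each array (points) of the LNA, GLA, DGLA and control groups (x axis), with the mean and SD of 3 arrays as bars. For ptr-22 the 3 DGLA arrays (5.69 to 5.97) lie above all 9 others, and for wrt-8 the LNA and DGLA arrays lie above the GLA and control arrays.

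No other warthog gene was called against control. The brightest, wrt-4, had means of 12.02 with LNA, 12.12 with GLA and 12.09 with DGLA, against 12.07 in control, and its GLA arrays cleared control by a difference of 0.04 (adjusted p = 0.999). Likewise wrt-9 had means of 10.43, 10.68 and 10.71 with the 3 acids, in the same order, against 10.66 in control. For wrt-5, which worms need to live, the differences were 0.17, 0.09 and -0.01 and each interval spanned 0. For wrt-6 the LNA arrays read 11.27, 10.37 and 10.93, against 11.23, 11.12 and 11.21 in control. Only LNA 2 and LNA 3 were low, and the difference was -0.33 with them (adjusted p = 0.57) and 0.08 with LNA 1 alone. At the dim end, wrt-3 had a difference of -0.32 with GLA (adjusted p = 0.916), and wrt-7 had 3.99, 3.79 and 3.73 on the LNA arrays, against 4.15, 4.05 and 4.00 in control (difference -0.23, adjusted p = 0.755).

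A set of genes varied more between arrays of a group than between groups, and wrt-1, wrt-2 and wrt-10 led it. The gene wrt-10, whose product has been tied to the quality of aging oocytes, read 7.78, 8.52 and 8.17 on the LNA arrays, 8.64, 8.31 and 8.14 on the GLA arrays, 7.75, 7.50 and 8.15 on the DGLA arrays and 8.49, 7.80 and 6.90 on the control arrays. Its lowest value was a control, and the other controls were spread over the range of the arrays with acids. For wrt-1, the control arrays read 8.71, 7.98 and 7.08, and the 9 arrays with acids lay between 7.61 and 8.73. For wrt-2, the control arrays read 9.59, 9.11 and 7.90, and the arrays with acids lay between 8.67 and 9.81. The SD of the 3 control arrays was 0.818 for wrt-1, 0.869 for wrt-2 and 0.800 for wrt-10. The differences for GLA minus control were 0.50, 0.65 and 0.64 for wrt-1, wrt-2 and wrt-10, with adjusted p-values of 0.993, 0.957 and 0.957. Without control 3 they were 0.08, 0.16 and 0.22, so their size rested on that array.

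The single quahog gene, qua-1, which is needed for molting, and the groundhog gene grd-1 shared the low control 3 value and were also low on LNA 2 and LNA 3. For qua-1 the LNA arrays read 9.50, 8.48 and 8.36, the GLA arrays 9.92, 9.60 and 9.48, the DGLA arrays 9.28, 9.54 and 9.54 and the control arrays 9.99, 9.41 and 8.66. For grd-1 the LNA arrays read 9.15, 7.78 and 7.88, the GLA arrays 9.37, 9.13 and 9.09, the DGLA arrays 8.93, 9.33 and 9.16 and the control arrays 9.28, 9.11 and 8.49. LNA 1 was level with the arrays of the other acids for both genes. The LNA minus control difference was -0.58 for qua-1 (SE 0.332, adjusted p = 0.587) and -0.69 for grd-1 (SE 0.315, 95% interval -1.38 to -0.00, adjusted p = 0.52). With LNA 2 and LNA 3 left out it was 0.14 for qua-1 and 0.19 for grd-1, and with LNA 1 left out it was -0.93 for qua-1 and -1.13 for grd-1 (adjusted p = 0.0155 for grd-1). The direction for both genes therefore rested on which LNA arrays were kept.

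**Figure D4:**
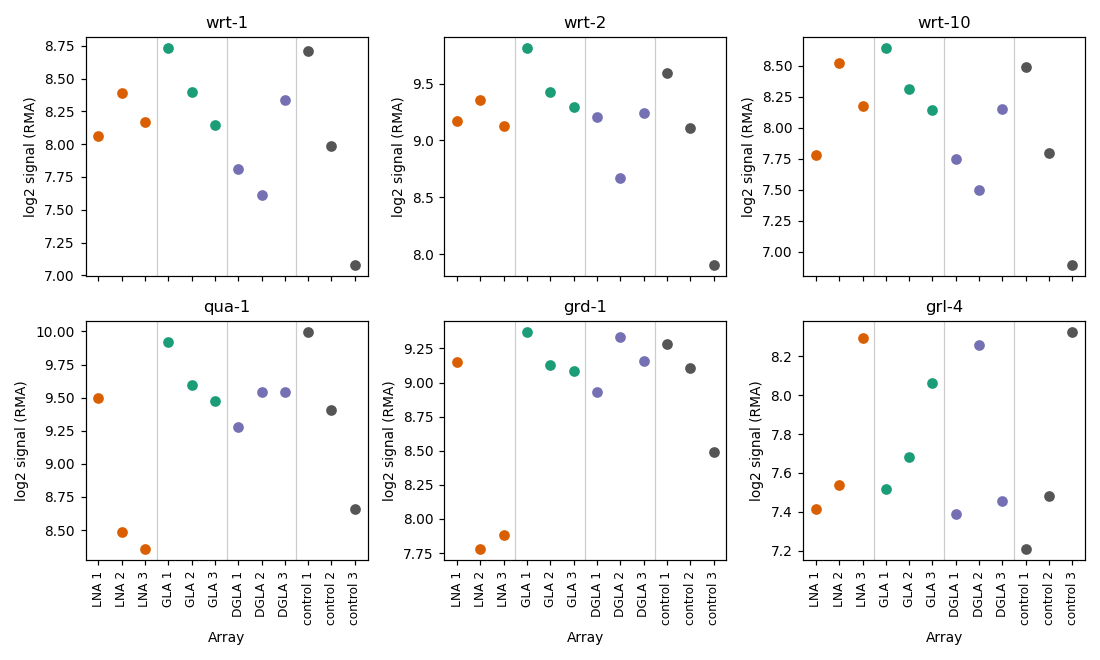
Log2 signal (y axis) on each of the 12 arrays (x axis, in the order LNA, GLA, DGLA, control) for wrt-1, wrt-2, wrt-10, qua-1, grd-1 and grl-4. Control 3 is the lowest control array in the first 5 panels and the highest control array for grl-4, and LNA 2 and LNA 3 are low for qua-1 and grd-1.

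Over the 10 arrays other than LNA 2 and LNA 3, the 3 warthog genes moved together. Among 20 pairs computed (15 among the 6 genes with the largest SD, and 5 further pairs of chromosomal neighbours), Pearson's r was 0.986 for wrt-10 with wrt-1 (permutation p = 1e-05, the smallest 100000 permutations can give, adjusted 0.0001, Spearman's rho 0.988 with permutation p = 1e-05). It was 0.963 for wrt-10 with wrt-2 (rho 0.939, permutation p = 0.00021) and 0.951 for wrt-2 with wrt-1 (rho 0.952, permutation p = 0.00015). Leaving out the pair of arrays farthest from the median, control 3 and GLA 1, left r at 0.963, 0.911 and 0.895. Over all 12 arrays r was 0.973, 0.935 and 0.949, and it was 0.972, 0.922 and 0.946 for deviations from the group means. The genes wrt-1 and wrt-10 are next to each other in the reference gene table. For grd-1 with qua-1, r was 0.931 over 10 arrays (permutation p = 0.00086, adjusted 0.00287, rho 0.857 with permutation p = 0.00248), 0.709 without the farthest pair of arrays and 0.949 over 12.

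The link between those groups of genes depended on the LNA arrays. For qua-1 with wrt-10, r was 0.901 over 10 arrays (permutation p = 0.00057, adjusted 0.00228, rho 0.802 with permutation p = 0.00749), 0.743 without control 1 and control 3, and 0.285 over all 12 arrays (permutation p = 0.369). On LNA 2 and LNA 3, qua-1 was more than 1 log2 unit below LNA 1 while wrt-10 was above it. The fall was smaller for the other warthog genes. For qua-1 with wrt-2, r was 0.886 over 10 arrays and 0.487 over 12 (permutation p = 0.106). With wrt-1 it was 0.915 and 0.437 (permutation p = 0.156). For deviations from the group means, r of qua-1 was 0.437 with wrt-10, 0.640 with wrt-2 and 0.607 with wrt-1. For grd-1 with wrt-10, r was 0.745 over 10 arrays (permutation p = 0.0174, adjusted 0.0381, rho 0.552 with permutation p = 0.103), but 0.0772 without control 3 and GLA 1, so that relation rested on those arrays. Arrays of a treatment share its medium, so these are descriptions of joint movement over the arrays of this study.

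Genes of the molting cycle and markers of the adult stage and of oocytes differed between the same arrays. Control 3 lay over 0.3 below both other controls in 10 of the 80 genes (grd-1, grl-10, grl-14, grl-15, ptr-4, ptr-20, qua-1, wrt-1, wrt-2 and wrt-10) and over 0.3 above both in 7 (grd-7, grl-1, grl-4, grl-9, grl-21, grl-26 and ptr-23), where 4.63% and 5.88% of all genes did so. In a list of 52 measured molting genes, 18 were lower on control 3 by the same measure and 1 was higher. The matrix gene noah-1 read 9.39 on control 3, against 11.24 and 10.67 on control 1 and control 2, and the protease inhibitor gene mlt-11 read 7.89, against 10.01 and 9.30. Of 10 adult-stage markers, 8 were higher on control 3, among them the adult collagen gene col-19 at 8.95, against 7.90 and 8.47, and the yolk protein gene vit-5 at 9.33, against 6.97 and 6.63. Of 9 oocyte and eggshell markers, 4 were higher on control 3 (egg-1, oma-2, perm-2 and perm-4), with perm-2 at 8.15, against 7.27 and 7.60. Signals of a list were also summed on the linear scale, where the brightest probe sets weigh most. The log2 of that sum over all 9 was 11.91 to 12.24 on the LNA arrays, 11.98 to 12.26 on the GLA arrays, 12.13 to 12.19 on the DGLA arrays and 12.04 to 12.44 on the control arrays. Lower on control 3 were 3 of the 14 hypodermis and seam markers (bli-1, dpy-7 and nhr-74), the muscle marker myo-3 and the dim glial marker hlh-17. Of these, bli-1 and dpy-7 are also counted among the 52 molting genes, and nhr-74 was dim, at 2.81 on control 3. The rest of the hypodermis and seam list was mixed, and 0 of the 14 were higher on control 3 by over 0.3. Control 3 was the highest control for elt-1, elt-3, lin-26, ceh-16, col-10 and col-12, and the lowest for egl-18 and rol-6. For lin-26 it read 9.74, against 9.52 and 9.52. The median deviation of the 10 adult markers from their 12-array means was 0.44 on control 3, -0.42 on control 1 and -0.10 on control 2, and between -0.41 and 0.30 on the arrays with acids, with LNA 2 lowest and LNA 3 highest. The log2 of the summed linear signals of the 10 adult markers was 12.21 to 12.72 on the LNA arrays, 12.50 to 12.55 on the GLA arrays, 12.49 to 12.75 on the DGLA arrays and 12.10 to 12.78 on the control arrays. The lysozyme gene lys-4 was the only one of the 10 adult markers called against control, higher by 0.72 with LNA (adjusted p = 0.0186), by 0.55 with GLA (adjusted p = 0.0332) and by 0.71 with DGLA (adjusted p = 0.00325). None of the 10 adult or 9 oocyte markers lay below the lower quartile on all arrays, and the part of these markers in the pattern of the Hedgehog-related genes was not tested.

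The LNA arrays split along a set of genes that partly overlapped the one on control 3, since grd-1, qua-1, bli-1, grh-1 and mlt-11 were low in both. So were the muscle marker myo-3, the Patched gene ptc-3 and the megalin homologue lrp-1. LNA 2 and LNA 3 lay over 0.3 below LNA 1 in 3 of the 80 genes (grd-1, qua-1 and wrt-6) and above it in 5 (grd-3, grd-7, grd-12, grl-11 and wrt-10), beside 8.04% and 7.16% of all genes. Of those 5, grl-11 lay below the lower quartile on all arrays and grd-7 was dim, with a mean of 3.09. Of the 52 molting genes, 10 were lower and 5 were higher. The gene mlt-11 read 9.53 on LNA 1, 6.97 on LNA 2 and 7.68 on LNA 3, while noah-1 read 10.62, 10.35 and 10.18. Some markers of other tissues were lower on LNA 2 and LNA 3 too, among them 3 of 6 body wall muscle markers (unc-54, myo-3 and unc-15) and 2 of 6 pharynx markers (myo-1 and myo-2). The body wall myosin gene unc-54 read 11.59 and 12.15 on LNA 2 and LNA 3, against 12.99 on LNA 1, and the pharynx myosin gene myo-2 read 7.75 and 8.63, against 9.78. The remaining body wall muscle markers, tni-3, hlh-1 and lev-11, were slightly higher on LNA 2 and LNA 3 than on LNA 1. For tni-3 the values were 7.70 and 7.72, against 7.64, and for lev-11 they were 12.06 and 12.14, against 12.04. Of the remaining pharynx markers, tnt-4 and tnc-2 were higher on LNA 2 and slightly lower on LNA 3, while pha-4 and ceh-22 were lower on both. The log2 of the summed linear signals of the 6 body wall muscle markers was 13.27 to 14.14 on the LNA arrays, 14.08 to 14.10 on the GLA arrays, 13.996 to 14.13 on the DGLA arrays and 14.03 to 14.11 on the control arrays. Over the 6 pharynx markers it was 10.40 to 11.41, 11.37 to 11.40, 11.25 to 11.49 and 11.18 to 11.33 on the LNA, GLA, DGLA and control arrays. The brightest probe sets weigh most in these sums, so the sums do not speak for every marker of a list. The glial marker lit-1, the oocyte marker cbd-1 and the hypodermis marker bli-1, which is also counted among the molting genes, were lower as well. Higher were lin-48 of the excretory duct, gsp-4 and msp-3 of the sperm line, ceh-16 and col-12 of the hypodermis and seam and col-19 of the adult stage. None of the 12 body wall muscle and pharynx markers lay below the lower quartile on any array, and the part of these markers in the values of grd-1, qua-1 and wrt-6 was not tested. Over the 52 molting genes, 0 were called by limma in any of the 3 comparisons with control. An unadjusted p under 0.05 was reached by 5 with LNA, 6 with GLA and 2 with DGLA, beside 9.6%, 5.46% and 5.69% of all probe sets.

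**Figure D5:**
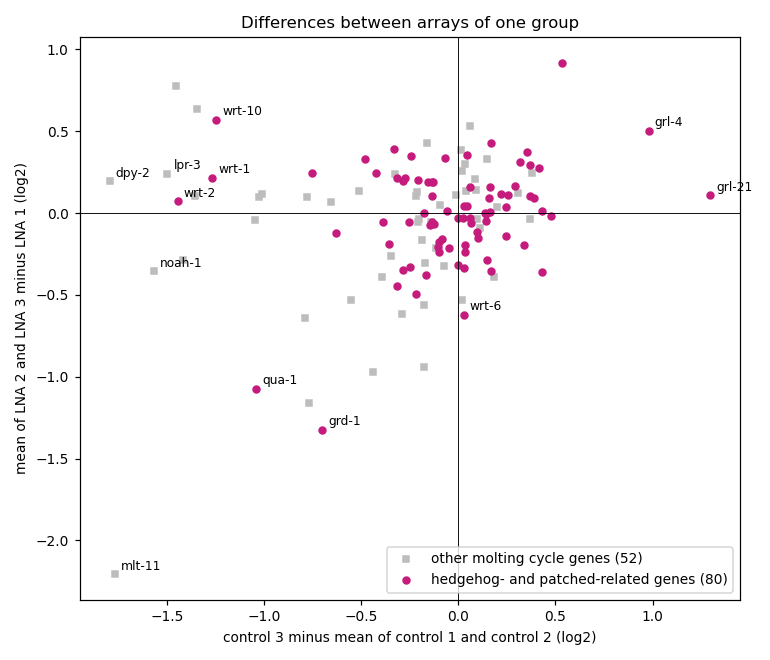
For each of the 80 genes and the 52 molting genes, the log2 difference of control 3 from the mean of control 1 and control 2 (x axis) against the log2 difference of the mean of LNA 2 and LNA 3 from LNA 1 (y axis). The genes wrt-1, wrt-2 and wrt-10 lie far to the left near the zero line of the y axis or above it, whereas grd-1 and qua-1 lie at the lower left.

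None of the other groundhog genes was called against control. For grd-3 the GLA arrays read 5.68, 5.68 and 5.40, against 5.28, 5.02 and 4.82 in control, with no overlap between these groups (difference 0.54, 95% interval 0.20 to 0.89, adjusted p = 0.547). Next to it in the gene table is grd-10, chosen after its values were seen, with 5.39, 4.77 and 5.33 on the GLA arrays, against 4.98, 4.58 and 4.36 in control, and these overlapped (0.52, 0.08 to 0.96, adjusted p = 0.853). On the other side of grd-3 is grd-13, likewise chosen after its values were seen, with a GLA difference of 0.10. Over the 10 arrays, r between grd-3 and grd-10 was 0.722 (permutation p = 0.0191, adjusted 0.0381, rho 0.661 with permutation p = 0.0442 and adjusted 0.11). It was 0.824 without control 3 and GLA 2 and 0.723 over all 12 arrays. For grd-11 the GLA arrays read 5.22, 5.39 and 5.32, against 4.59, 5.03 and 5.20 in control (0.37, adjusted p = 0.944). The bright grd-5 stayed between 11.93 and 12.13 on all 12 arrays, and its differences were 0.09 with LNA, -0.03 with GLA and 0.00 with DGLA. For grd-14 the differences were 0.20, 0.16 and 0.19, each with an interval that spanned 0.

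Among the ground-like genes, grl-31 had the lowest difference from control with GLA. It read 3.97, 3.99 and 4.13 on the LNA arrays, 3.79, 3.85 and 3.79 on the GLA arrays, 3.85, 4.11 and 4.29 on the DGLA arrays and 4.14, 4.38 and 4.42 on the control arrays. All LNA and GLA values were below all control values, and the differences were -0.51 with GLA (-0.77 to -0.24, adjusted p = 0.255) and -0.29 with LNA (-0.55 to -0.03, adjusted p = 0.499). With DGLA the arrays overlapped control (-0.23, adjusted p = 0.928). Its neighbour in the gene table, grl-30, chosen after its values were seen, had a GLA difference of -0.08.

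With DGLA, grl-8 read 6.56, 6.04 and 6.19, against 6.00, 5.99 and 5.87 in control (0.31, 0.03 to 0.59, adjusted p = 0.793). The dim gene grl-12 read 4.25, 3.90 and 3.92, against 3.75, 3.75 and 3.50 (0.36, adjusted p = 0.925). Below control with DGLA was grl-6, at 3.61, 3.67 and 3.65, against 3.98, 3.72 and 3.88 (-0.22, adjusted p = 0.912). For grl-2 the LNA arrays, at 5.27, 5.30 and 5.45, cleared the control arrays at 5.13, 5.18 and 5.03 (0.23, adjusted p = 0.705). None of these 4 gaps was larger than 0.4 on the log2 scale.

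The gene grl-21, linked in worms to fat storage in a response to bacterial metabolites, had the widest control spread of the family. Its LNA arrays read 4.77, 4.85 and 4.91, its GLA arrays 5.19, 4.74 and 4.59, its DGLA arrays 4.95, 4.92 and 5.0 and its control arrays 4.24, 3.55 and 5.19. The DGLA difference was 0.63 (-0.04 to 1.31, adjusted p = 0.912), and 1.06 without control 3 (adjusted p = 0.075). For grl-4 the arrays spread widely within each group: 7.41, 7.54 and 8.29 with LNA, 7.52, 7.68 and 8.06 with GLA, 7.39, 8.26 and 7.45 with DGLA, and 7.21, 7.48 and 8.32 in control. Its differences were 0.08, 0.08 and 0.03 (SE 0.325).

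For grl-7, which like ptr-18 acts in the control of progenitor quiescence in early larvae, the differences were -0.10 with LNA, 0.16 with GLA and 0.06 with DGLA. The glial gene grl-18 read 6.08, 6.10 and 6.00 with DGLA, against 5.94 on all 3 control arrays (0.12, adjusted p = 0.991). Such exact repeats come with the deposited values: 20 of the 80 genes had a value that recurred on another array of any group, and what these repeats do to the spread was not tested. The bright grl-16 had means of 11.25, 11.38 and 11.49 with LNA, GLA and DGLA, against 11.45 in control, and grl-5 had means of 9.64, 9.52 and 9.51, against 9.52.

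On the receptor side, ptr-22 was the member that changed. It read 5.31, 5.20 and 4.72 on the LNA arrays, 5.38, 5.22 and 5.59 on the GLA arrays, 5.97, 5.69 and 5.79 on the DGLA arrays and 4.90, 4.83 and 5.03 on the control arrays. Every DGLA value was above every other value, the GLA values cleared control, and the LNA values overlapped it. The DGLA mean was 5.82 ± 0.142, against 4.92 ± 0.104 in control (SD, n = 3 each), a difference of 0.90 (SE 0.154, 95% interval 0.56 to 1.24) or 1.87-fold, with an adjusted p of 0.0259 by limma. The GLA difference was 0.48 (0.14 to 0.81, adjusted p = 0.689) and the LNA difference 0.15 (-0.18 to 0.49, adjusted p = 0.764). The call was lost when any DGLA or any control array was left out, with adjusted p-values of up to 0.127 and differences of 0.82 to 0.96. It was also lost with the replicate number as a block (adjusted p = 0.0553).

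Between the acids, ptr-22 differed by 0.75 for DGLA minus LNA (0.41 to 1.08, adjusted p = 0.0886), by 0.42 for DGLA minus GLA (0.08 to 0.76, adjusted p = 0.878) and by 0.33 for GLA minus LNA (-0.01 to 0.66, adjusted p = 0.464). None of the 3 was called. The DGLA minus LNA value was 0.51 with LNA 1 alone and 0.86 without LNA 1, and in the second case the adjusted p was 0.0113.

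Other patched-related genes gave smaller gaps. For ptr-15 the LNA arrays all read 6.02 and the GLA arrays read 6.16, 5.98 and 5.90, against 5.75, 5.78 and 5.59 in control, with no overlap for either acid. The differences were 0.32 with LNA (0.08 to 0.55, adjusted p = 0.474) and 0.31 with GLA (0.07 to 0.54, adjusted p = 0.804). For ptr-6 the LNA arrays read 8.52, 8.58 and 8.40, against 8.12, 8.32 and 8.24 (0.27, 0.08 to 0.47, adjusted p = 0.453). In contrast ptr-2, tied like wrt-10 to oocyte quality with age, was below control with GLA, at 9.68, 9.67 and 9.79, against 9.83, 10.01 and 10.01 (-0.23, -0.42 to -0.04, adjusted p = 0.839). Of the genes above control with DGLA, ptr-11, ptr-12, ptr-8 and ptr-1 had differences of 0.27, 0.25, 0.22 and 0.23, with adjusted p-values of 0.641, 0.797, 0.956 and 0.913. These 4 were chosen after their DGLA values were seen.

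No difference among ptr-4, ptr-18, ptr-23 and ptr-9 was called. For ptr-4, which shapes the precuticle matrix, the GLA arrays read 9.83, 9.74 and 9.73, against 9.68, 9.69 and 9.33 in control (0.20, adjusted p = 0.98), and without control 3 the difference was 0.08. For ptr-18 the differences were 0.01, -0.02 and 0.06 with LNA, GLA and DGLA, and none of the intervals reached past 0.26. For ptr-23, tied to the osmotic response of the hypodermis, they were -0.05, -0.09 and 0.01. The dimmest of the family, ptr-9, lay below the lower quartile on 3 of the 12 arrays, and its differences were 0.09, 0.10 and -0.02.

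The comparisons between acids at matched dose gave 0 calls among the 80 genes for GLA minus LNA, DGLA minus GLA and DGLA minus LNA by limma, where 0.0614%, 0.075% and 0.317% of all probe sets were called. An unadjusted p under 0.05 was reached by 7, 5 and 9 of the 80, beside 11%, 5.15% and 11.8% of all probe sets. The median differences were 0.03, -0.01 and 0.04, beside -0.029, 0.0016 and -0.027 over all genes. Arrays did not overlap for 12 genes in GLA minus LNA, 11 in DGLA minus GLA and 9 in DGLA minus LNA, beside 15.2%, 10.8% and 12.7% of all genes. These p-values do not show that the acids act alike, and with 3 arrays a group the intervals reach past 0.5 for many genes.

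For GLA, which has the further double bond, minus LNA, grl-17 read 4.42, 4.36 and 4.74 on the GLA arrays, against 3.95, 3.75 and 4.22 on the LNA arrays (0.53, 0.09 to 0.97, adjusted p = 0.4, and 0.56 with LNA 1 alone). For ptr-25 the GLA arrays read 7.01, 7.01 and 7.16, against 6.97, 6.47 and 6.71 (0.34, adjusted p = 0.393). That gap was 0.09 with LNA 1 alone and 0.47 without LNA 1, with an adjusted p of 0.0353 in the second case. For ptr-10 the GLA arrays read 5.62, 5.60 and 5.46, against 5.26, 5.36 and 5.05 with LNA (0.33, 0.04 to 0.63, adjusted p = 0.409). Below LNA were grd-15 (-0.36, adjusted p = 0.519) and grl-22 (-0.25, adjusted p = 0.486). The GLA minus LNA differences of grd-1 (0.92, adjusted p = 0.393) and qua-1 (0.89, adjusted p = 0.397) were 0.04 and 0.17 with LNA 1 alone. Without LNA 1 they were 1.36 for grd-1 (adjusted p = 0.0047) and 1.25 for qua-1 (adjusted p = 0.0532).

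For DGLA, the longer chain, minus GLA, the lowest differences were those of wrt-10 (-0.57, -1.30 to 0.17, adjusted p = 1) and wrt-1 (-0.51, -1.24 to 0.22, adjusted p = 1), whose arrays overlapped. Among genes whose arrays did not overlap, the lower side held wrt-2 (-0.47, -1.21 to 0.26), ptr-10 (-0.30, -0.59 to -0.01, adjusted p = 0.966) and ptr-4 (-0.15, adjusted p = 1), and grl-31 was higher by 0.28 (0.01 to 0.54, adjusted p = 0.95). For DGLA minus LNA, ptr-12 read 6.11, 6.43 and 6.12 on the DGLA arrays, against 5.95, 5.82 and 5.94 on the LNA arrays (0.32, 0.09 to 0.55, adjusted p = 0.319). For ptr-8 the DGLA arrays read 4.78, 4.75 and 4.84, against 4.54, 4.59 and 4.35 (0.30, adjusted p = 0.365). In the other direction grl-27 read 8.22, 8.27 and 7.70 with DGLA, against 8.38, 8.42 and 9.08 with LNA (-0.56, -1.06 to -0.07, adjusted p = 0.363), and -0.32 with LNA 1 alone. The small gap of grd-5 (-0.08) was also without overlap. The DGLA minus LNA difference of grd-1 was 0.87 over all arrays, -0.01 with LNA 1 alone and 1.31 without LNA 1 (adjusted p = 0.00525).

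Of 15 further genes of the pathway, from a list of Patched, Dispatched-like, lipid-transfer and Hedgehog-processing genes, 0 were called by limma in any of the 6 comparisons. Against control, an unadjusted p under 0.05 was reached by 4 with LNA, 2 with GLA and 1 with DGLA, all lower, beside 9.6%, 5.46% and 5.69% of all probe sets. Between acids it was reached by 5 in GLA minus LNA, 2 in DGLA minus GLA and 6 in DGLA minus LNA, beside 11%, 5.15% and 11.8% of all probe sets. The NPC1 homologue ncr-1 read 7.37, 7.54 and 7.56 with DGLA, against 7.95, 7.95 and 7.90 in control (-0.44, SE 0.091, adjusted p = 0.0712), with no overlap. Its differences were -0.22 with LNA (adjusted p = 0.5) and -0.24 with GLA (adjusted p = 0.848). The Gli homologue tra-1, which directs sexual fate, read 9.65, 7.55 and 8.0 with LNA, against 9.48, 9.50 and 9.35 in control (-1.04, adjusted p = 0.483). The Patched gene ptc-3 read 9.74, 7.85 and 8.48 with LNA, against 9.72, 9.56 and 9.04 (-0.75, adjusted p = 0.535). The megalin homologue lrp-1, needed for molting, read 10.32, 9.14 and 8.58, against 10.24, 10.19 and 9.59 (-0.66, adjusted p = 0.558).

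For tra-1, ptc-3 and lrp-1 alike, LNA 2 and LNA 3 were below all 3 controls, as they were for grd-1 and qua-1, and LNA 1 was above all 3. Control 3 was over 0.3 below both other controls for ptc-3 and lrp-1. The Patched gene ptc-1, which acts in germline cytokinesis, had an LNA difference of -0.48 (adjusted p = 0.498) with the same 2 arrays low. The Dispatched-like che-14 differed by 0.18, 0.08 and -0.06 and the patched-related daf-6, which shapes the lumen of a sense organ, by -0.07, -0.23 and -0.06 with LNA, GLA and DGLA. The gene ptc-2 lay below the lower quartile on all arrays.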

How the data were processed

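Total RNA of 12 samples was hybridised as biotin-labelled cRNA to Affymetrix arrays. Per the submitters' processing notes, which name RMA, the Transcriptome Analysis Console and the Affymetrix Expression Console, the deposited values were taken as log2 signals normalised between arrays by the authors. Options and versions were not stated. Raw intensities were not used here. Of 29317 probe sets, 25546 had 1 gene symbol, 646 several and 3125 none, and all stayed in the fit since probe types were not known. Names were matched by gene identifier to a reference table (assembly WBcel235), and no coordinates are given because the files name no build.

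Group means were fitted in limma 3.58.1 (lmFit, eBayes; R 4.3.3) to all 12 arrays with no block and no filter, with two-sided moderated tests and Benjamini-Hochberg adjustment over all probe sets of a comparison at 0.05. There were 8 residual and 11.6 total degrees of freedom. Precision is limited by the number of arrays. Correlations used 100000 permutations (scipy 1.17.1). The fit was tested on simulated data.

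The genes, gene lists, markers and naming rule were chosen with earlier results of these data known. Named were genes called in any comparison, genes whose arrays did not overlap with the largest differences (up to 4 a side against control and 3 between acids), the brightest 3 and the dimmest of each family, the 6 with the largest SD, and 10 of known function. List genes with no probe set under their name (dpy-10, bus-8, nhr-73, msp-10, msp-31, msp-113, msp-142, vit-3 and fig-1) were not analysed here. Deviations of replicates with the same number correlated at low values of either sign, and whether they share a batch was not tested. Alternatives were renormalisation, a filter on dim probe sets, other variance settings, array weights, subsets of arrays, a replicate block and other choices of probe set.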

Additional observations from a re-analysis of the deposited data

How the results depend on the processing

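The single member call for DGLA minus control (ptr-22) became 2 with a filter on mean signals of at least 5 (ptr-22 and wrt-8), and 0 to 1 when single arrays were left out. The filter gave 1 call for LNA minus control (wrt-8) and 1 for DGLA minus LNA (ptr-22), and array weights gave 1 for DGLA minus LNA (ptr-22). Leaving out single arrays gave 0 to 2 calls for LNA minus control, 0 to 3 for GLA minus LNA and 0 to 3 for DGLA minus LNA, with the highest count in each case without LNA 1 (grd-1 and wrt-8, then grd-1, ptr-25 and wrt-8, then grd-1, ptr-22 and ptr-25). Without LNA 1 the calls over all 29317 probe sets also rose, to 895, 961 and 1359 in these comparisons, so the added member calls came with a rise over the whole array. GLA minus control and DGLA minus GLA stayed at 0 in every alternative run.

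The 18 same-number pairs of arrays correlated at -0.133 to 0.216 in their deviations, and the 36 others at -0.158 to 0.136. Between control and LNA, the same-number pairs were at 0.157, 0.069 and 0.216, and the other pairs lay between -0.158 and 0.009. Between control and DGLA, the same-number pairs were at -0.093, -0.077 and -0.089. Whether arrays of the same number share a batch was not tested. With replicate number as a block, 0 members were called for DGLA minus control, and ptr-22 had an adjusted p of 0.0553. No other count of member calls changed with the block.

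The median difference of the members for LNA minus control was -0.0189 with cyclic loess, 0.0473 with the filter, -0.0134 with array weights and 0.0362 with LNA 2 and LNA 3 left out. With the filter it was 0.0777 for GLA minus control and 0.0654 for DGLA minus control. It was 0.0583 for GLA minus LNA and 0.0700 for DGLA minus LNA with cyclic loess, and for DGLA minus LNA 0.0611 with array weights and -0.0083 with LNA 2 and LNA 3 left out. Leaving out single arrays gave 0.0257 to 0.0701 for DGLA minus control, 0.0168 to 0.0455 for GLA minus LNA and -0.0427 to 0.0246 for DGLA minus GLA. The cause of these shifts was not tested, and the filter tests fewer genes.

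The naming rule gave 109 pairs of a gene and a comparison, which do not cover every comparison of each named gene. Of 2375 alternative values for these pairs, 2359 kept their side of the threshold, 7 lost a call and 9 gained one, and 0 called values changed sign. Not in these counts are the calls gained without LNA 1 by grd-1 in GLA minus LNA and DGLA minus LNA and by ptr-25 in DGLA minus LNA. Among values called in neither fit, 95 changed sign, the largest with a main difference of 0.69 in size. Over all probe sets, the 17 calls for LNA minus control ran between 0 (fitted on the 6 arrays compared) and 895 (without LNA 1), and the 146 for DGLA minus control between 66 and 210. The 67 for GLA minus control ran between 24 and 98.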
